A study of Oryza sativa with 9 samples.

Results

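Gibberellins are diterpenoid hormones that drive stem and leaf elongation in rice. Their carbon skeleton is made from geranylgeranyl diphosphate in the plastid by 2 cyclases in turn, is oxidised by cytochrome P450 enzymes, and is turned into active hormone by soluble dioxygenases of the GA20ox and GA3ox families. Enzymes of the GA2ox family and the P450 EUI inactivate it. The hormone binds the receptor GID1, and the bound receptor brings about the destruction of SLR1, the DELLA protein that represses growth. In plants, transcripts of GA20ox and GA3ox genes are known to fall, and those of GA2ox genes to rise, when gibberellin signalling is high.

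The 10 genes described here were taken by locus number from a table of 34119 rice genes. They are the early synthesis genes OsCPS1, OsKS1 and OsKO2, the late synthesis genes GA20ox1, GA20ox2 and GA3ox2, the inactivation genes GA2ox3 and EUI, and the signalling genes GID1 and SLR1. The rule uses no measured value. All 10 were in the table, and 8 passed a filter on low values, which asked for 3 or more of the 6 libraries to reach an FPKM of 1. OsCPS1 and EUI did not pass it. FPKM is fragments per kilobase of gene and per M (mega) of the library size used to scale that library.

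The libraries came from polyadenylated RNA of 14-day-old seedlings, each kept for 3 h in 20% PEG8000, a polyethylene glycol that draws water out of the plant. Wild-type plants (NIP_PEG) gave 3 libraries. Plants of the line SDG708-YFP-1 (708OE_PEG) gave 3 more. This 1 line overexpresses SDG708, a SET-domain histone methyltransferase, fused to a yellow fluorescent protein, and the sources used here do not give the promoter of its transgene. Both genotypes were treated, so the data compare genotypes under PEG and say nothing of how either responded to it. Only the wild type was labelled with lanes, 2 for each repeat, and the table has 1 column for each repeat, so lane and genotype cannot be told apart. Nothing in the labels ties repeats to separate cultures, and p-values then measure only how far these libraries differ among themselves, which may be technical.

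The library sizes implied by the FPKM values were 17.4 to 24.9 M reads in the wild type and 13.3 to 18.1 M in the overexpression line. They differed from the totals of reads that could be recovered from the table. Those totals cover the 26864 of 31263 genes with any read whose whole reads could be worked out. They were 1.05 to 1.07 times the implied sizes in the wild type and 0.972 to 0.997 times in the overexpression line. By these reads the scaling differed by genotype, and the sources used here do not say how it was set. LOC_Os04g34976, the locus numbered just below the one held for SDG708, had an FPKM of 5.15 ± 0.665 in NIP_PEG against 149.9 ± 3.70 in 708OE_PEG (SD, n = 3 each). The locus held for SDG708 was not analysed here. The tissue is labelled as seedling. Of 8 root markers, 7 had a mean FPKM under 1, and 3 of these (Lsi2, NRT2.1 and AMT1;2) were at 0 in every library. The silicon transporter gene Lsi1 was at 2.39 to 3.27 in NIP_PEG and 2.39 to 2.66 in 708OE_PEG, did not pass the test and made up most of the list's level, and the summed FPKM was 2.75 to 3.71 in the wild type and 2.81 to 3.49 in the overexpression line. All 7 green-tissue markers rose, as did 14.3% of all genes tested, and their summed FPKM went from between 5043 and 5718 to between 8755 and 9285. Of 5 markers of dividing cells and shoot meristem, 3 were tested and 1, PCNA, rose. The meristem gene OSH1 was at 0 in every library, and the summed FPKM of the 5 genes was 7.28 to 8.29 and 8.07 to 8.92. In such bulk samples, fewer cells of a type and less RNA per cell cannot be told apart. The part of these shifts in the results below was not tested.

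In the overexpression line, 1 gibberellin gene stood well above the wild type, at 2.05 times its level. This was GA20ox2, the gene known in rice breeding as the semidwarf locus SD1, whose product makes the direct precursors of active gibberellin. The inactivation gene GA2ox3 was slightly lower. The first cyclase gene, OsCPS1, was at 0.513 times the wild-type level but too low for the main test. The second cyclase, the P450 OsKO2, GA20ox1, GA3ox2, the receptor and the DELLA gene did not pass.

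Of the 8 tested genes, 1 rose, 1 fell and 6 did not pass, 25% called in all (limma on log2(FPKM + 1), Benjamini-Hochberg adjusted p below 0.05 over all genes). Over all 18569 tested genes 34.3% were called, with 2654 (14.3%) higher and 3706 (20.0%) lower in 708OE_PEG, so a share of this size is no sign that gibberellin genes stood apart. Rescaling the libraries to these recovered totals (called the reads in the table below), in place of the sizes implied by FPKM, changed the overall split. It became 3684 higher and 2079 lower (31.0% called). The calls among gibberellin genes also changed, as given below for GA2ox3 and SLR1. The median log2 fold change was -0.05 over the 8 genes and -0.04 over all genes tested. The libraries of the groups did not overlap for 3 of the 8, against 50.6% of all genes tested.

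**Figure D1:**
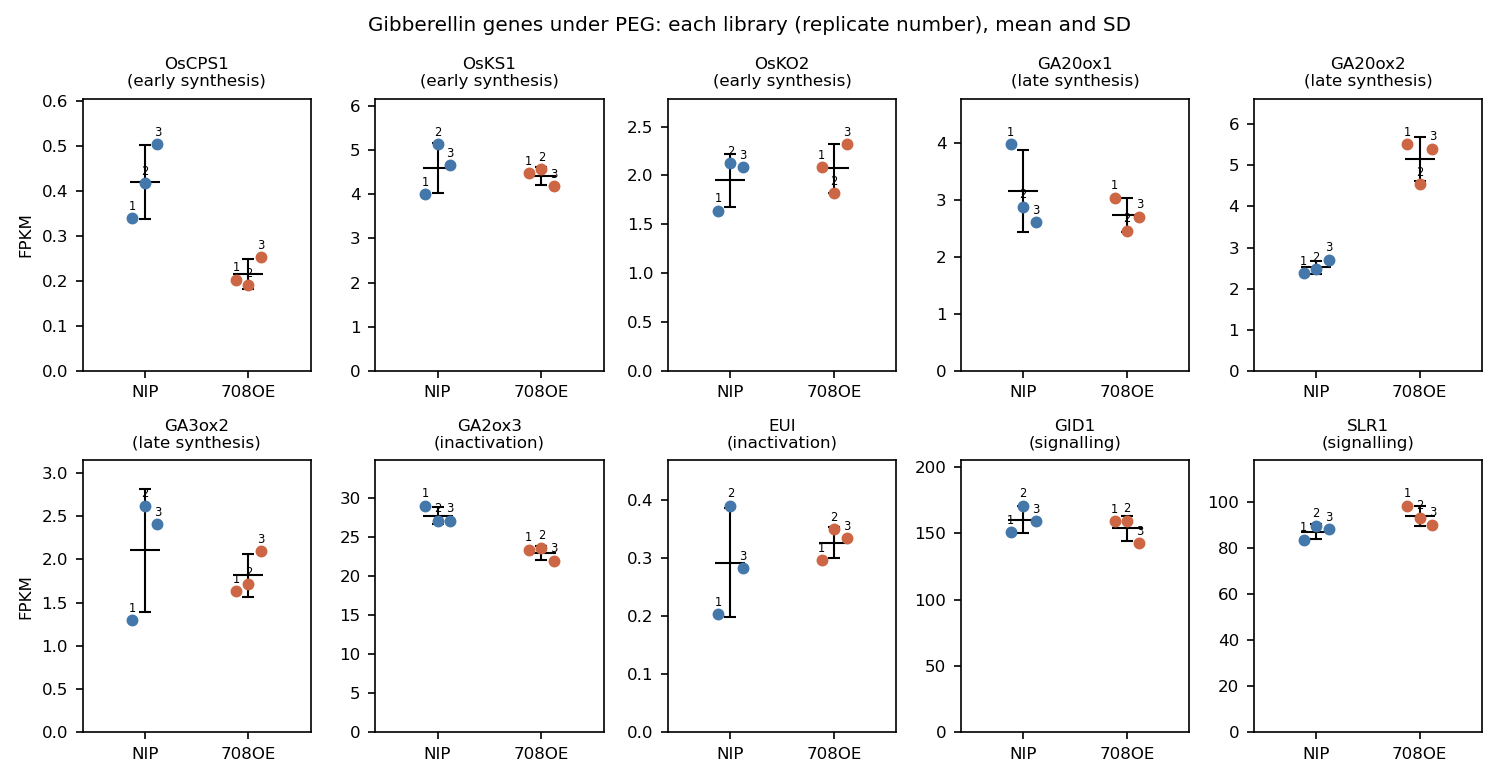
FPKM of the 10 gibberellin genes in each library, numbered by replicate, with the mean (bar) and SD (whiskers) of 3 libraries of the wild type (NIP_PEG, blue) and of the overexpression line (708OE_PEG, orange); each panel has its own axis from 0. The groups separate widely for GA20ox2 and for OsCPS1, by a smaller margin for GA2ox3 and barely for SLR1.

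OsCPS1 (LOC_Os02g17780, chromosome 2) encodes the ent-copalyl diphosphate synthase that commits carbon to gibberellin. Its FPKM was 0.340, 0.418 and 0.504 in NIP_PEG against 0.203, 0.191 and 0.253 in 708OE_PEG. Every overexpression library lay below every wild-type library. Means were 0.420 ± 0.0823 and 0.216 ± 0.0332 (SD, n = 3 each), a ratio of 0.513. The exact permutation test, two-sided, returned the least p that 3 against 3 libraries can reach, 0.1. These levels rest on 59, 104 and 101 reads in NIP_PEG against 27, 26 and 46 in 708OE_PEG. The gene failed the filter of the main test. On whole reads recovered from the FPKM steps its log2 fold change was -0.89 (SE 0.23, 95% interval -1.39 to -0.39, limma-voom adjusted p = 0.013), in a test that called 27.2% of all genes. Leaving out 708OE_PEG replicate 1 or 2 ended that call (limma-voom adjusted p = 0.0531 and 0.061). The authors' deposited table has a log2 fold change of -0.95 for it, and after Benjamini-Hochberg adjustment of that table's p-values 28.9% of its genes were below 0.05. Whether those p-values had already been adjusted is not stated, so calls from that table carry this doubt.

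OsKS1 (LOC_Os04g52230, chromosome 4) encodes the ent-kaurene synthase of the next step. Its FPKM was 3.99, 5.13 and 4.65 in NIP_PEG against 4.48, 4.57 and 4.18 in 708OE_PEG. The overexpression libraries all lay inside the wild-type range, and the log2 fold change of -0.04 (95% interval -0.25 to 0.16, limma adjusted p = 0.74) did not pass. OsCPS1 and OsKS1 act in sequence. The FPKM ratio of OsCPS1 to OsKS1, which no library scaling can change, was 0.0851, 0.0814 and 0.108 in NIP_PEG against 0.0453, 0.0418 and 0.0606 in 708OE_PEG. It was lower in every overexpression library (exact two-sided permutation p = 0.1, the smallest possible and above 0.05).

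OsKO2 (LOC_Os06g37364, chromosome 6), the ent-kaurene oxidase gene of the dwarf locus D35, had an FPKM of 1.64, 2.12 and 2.08 in NIP_PEG against 2.09, 1.82 and 2.32 in 708OE_PEG. The groups overlapped, with a log2 fold change of 0.06 (95% interval -0.17 to 0.29, limma adjusted p = 0.66).

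Rice also holds paralogs of these early enzymes, many of which serve the antimicrobial diterpenoid phytoalexins and draw on the same precursor. Without a filter on low values, 8 of 13 such paralogs listed were called higher by limma (OsCPS2, OsCPS4, OsKSL4, OsKSL7, OsKSL8, OsKSL10, OsKOL4 and OsKOL5), none was called lower, and 7.93% of all genes were called higher in that test. The other 5 (OsKS2, OsKS3, OsKSL5, OsKSL6 and OsKO1) were near 0 in both genotypes. With the filter 7 were tested and called, 6 of them kept only through the overexpression libraries, so that count was partly set by the filter. The ratio of OsCPS2 to OsCPS1 within a library was 2.05, 2.39 and 2.18 in NIP_PEG against 79.1, 80.5 and 59.1 in 708OE_PEG. The ratio of OsKSL7, a kaurene synthase relative, to OsKS1 was 0.105, 0.103 and 0.130 in NIP_PEG against 1.82, 1.76 and 1.94 in 708OE_PEG. The ratio of OsKOL4, a kaurene oxidase relative close to OsKO2 on chromosome 6, to OsKO2 was 2.96, 2.50 and 2.67 against 9.71, 10.995 and 8.40. At all 3 steps this ratio was higher in every overexpression library. The pairs were picked after the values were known, and the ratios are given as a description with no test. Reads could be split between such close relatives, and the sources used here do not say how the authors treated reads that match several genes.

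**Figure D2:**
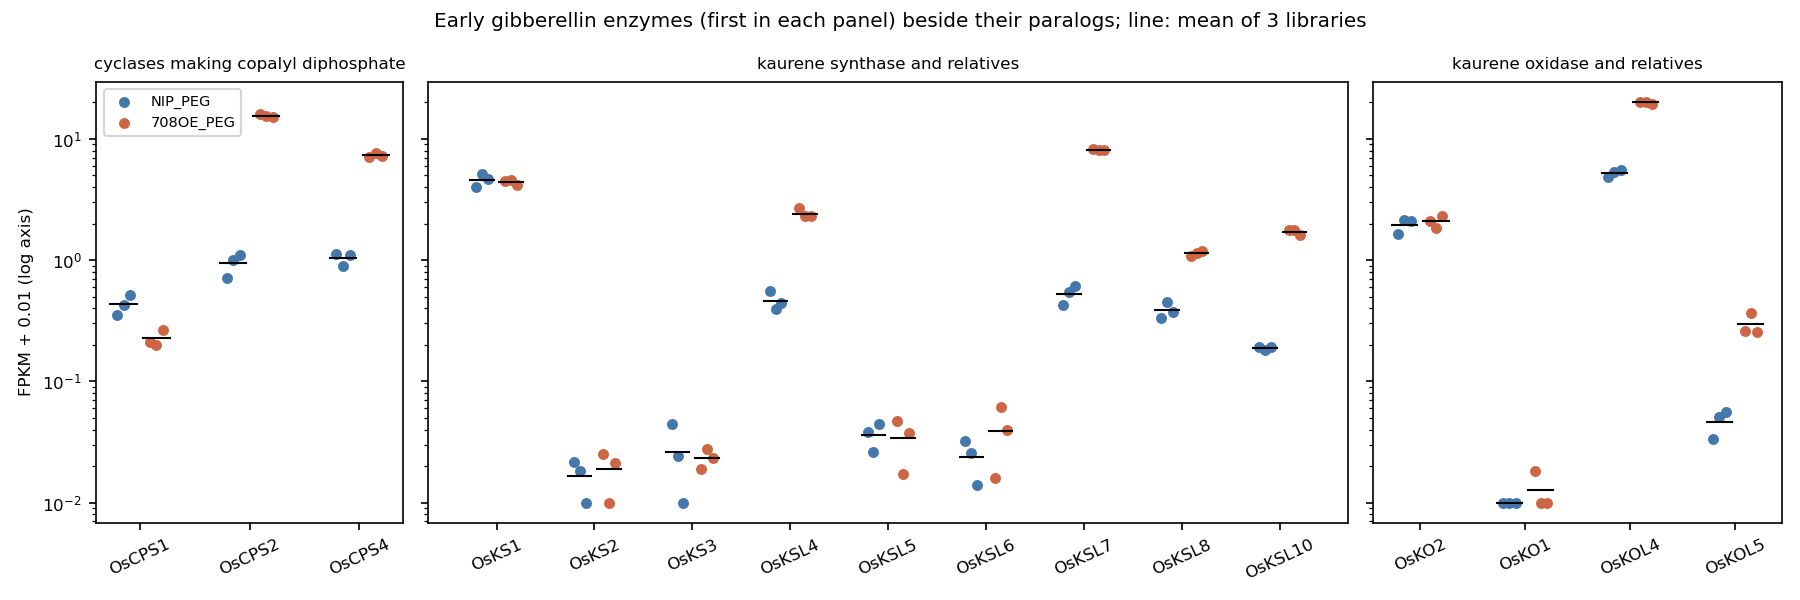
FPKM on a log axis in each library of NIP_PEG (blue) and 708OE_PEG (orange) for the early gibberellin genes, first in each panel, and for all 13 paralogs, with 0.01 added to each FPKM; lines are means of 3 libraries. The libraries of OsKS1 and OsKO2 overlap between groups, those of OsCPS1 are lower in the overexpression line, 8 paralogs are higher in every overexpression library and 5 lie near the floor of the axis.

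GA20ox2 (LOC_Os01g66100, chromosome 1) had an FPKM of 2.38, 2.47 and 2.70 in NIP_PEG against 5.51, 4.54 and 5.40 in 708OE_PEG. The lowest overexpression library was well above the highest wild-type library. Means were 2.52 ± 0.167 and 5.15 ± 0.532 (SD, n = 3 each), a ratio of 2.05. The log2 fold change on the log2(FPKM + 1) scale was 0.80 (SE 0.09, 95% interval 0.60 to 1.004, limma adjusted p = 0.000495). Of all genes tested, 523, or 2.82%, had a log2 fold change at least as high. The size depended on the pseudocount, being 1.002 with 0.1 and 0.43 with 5, and was 1.07 on whole reads (limma-voom). The gene passed in all 24 alternatives, the 6 that leave out 1 library among them (limma adjusted p from 0.00074 to 0.0045 there).

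GA20ox1 (LOC_Os03g63970, chromosome 3) catalyses the same step as GA20ox2 and had an FPKM of 3.98, 2.88 and 2.61 in NIP_PEG against 3.04, 2.46 and 2.71 in 708OE_PEG. The highest value was that of NIP_PEG replicate 1, the groups overlapped, and the log2 fold change of -0.14 (95% interval -0.43 to 0.15, limma adjusted p = 0.41) did not pass. The ratio of GA20ox2 to GA20ox1 within a library was 0.598, 0.857 and 1.03 in NIP_PEG against 1.81, 1.85 and 1.996 in 708OE_PEG. All overexpression libraries were higher (log2 change 1.22, exact two-sided permutation p = 0.1, the smallest possible). This ratio, that of OsCPS1 to OsKS1 and that of SLR1 to GID1 were also picked after the values were known. Their permutation p-values are therefore given as description and add no support.

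GA20ox4 (LOC_Os05g34854), another gene listed in that family, moved opposite to GA20ox2. Its FPKM was 8.01, 9.59 and 8.49 in NIP_PEG against 6.03, 6.18 and 5.65 in 708OE_PEG, without overlap (limma log2 fold change -0.48 with SE 0.08 and adjusted p 0.0035), and the call held in all 25 alternatives. The summed FPKM of GA20ox1, GA20ox2 and GA20ox4 was 14.4 ± 0.570 in NIP_PEG against 13.8 ± 0.707 in 708OE_PEG (SD, n = 3 each; exact two-sided permutation p = 0.4). GA20ox2 made up 16.5% to 19.6% of that sum in the wild-type libraries and 34.5% to 39.3% in the overexpression libraries. These shares did not overlap (exact two-sided permutation p = 0.1, the smallest possible), whereas the sums did. Since GA20ox2 was higher and GA20ox4 lower without overlap, the rise of this share largely follows from those results and adds no support. The sum was formed after the values were seen, and it adds levels per base of gene span, introns included.

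GA3ox2 (LOC_Os01g08220, chromosome 1), the gene of the dwarf locus D18, encodes the enzyme of the last step to active hormone. Its FPKM was 1.30, 2.62 and 2.40 in NIP_PEG against 1.63, 1.71 and 2.098 in 708OE_PEG. The wild-type libraries spanned a wider range than those of the overexpression line and enclosed them. The log2 fold change was -0.12 (95% interval -0.50 to 0.27, limma adjusted p = 0.61). By limma that result depended on NIP_PEG replicate 1, which had 29 reads of the gene. NIP_PEG replicates 2 and 3 had 84 and 62, and the 708OE_PEG libraries had 28, 30 and 49. Without NIP_PEG replicate 1 the log2 fold change was -0.32 and passed (limma adjusted p = 0.039). The same removal on whole reads gave -0.40 and did not pass (limma-voom adjusted p = 0.21). Without NIP_PEG replicate 2 the limma value was 0.01.

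GA2ox3 (LOC_Os01g55240, chromosome 1), a GA2-oxidase that inactivates the hormone, was the most abundant enzyme gene among the 10 per base of gene span. Its FPKM was 29.0, 27.1 and 27.1 in NIP_PEG against 23.3, 23.6 and 21.96 in 708OE_PEG. The groups did not overlap and differed by a small amount, with means of 27.7 ± 1.11 and 23.0 ± 0.888 (SD, n = 3 each), a ratio of 0.830. The log2 fold change was -0.26 (SE 0.06, 95% interval -0.41 to -0.11, limma adjusted p = 0.016). The call was lost in 7 of 25 alternatives. These were limma without 708OE_PEG replicate 1 (limma adjusted p = 0.0538) or 3 (0.0718), and with libraries rescaled to the reads in the table (-0.16 on the log2 scale, adjusted p = 0.080), and limma-voom on whole reads without NIP_PEG replicate 3 (0.064) or 708OE_PEG replicate 1 (0.085), 2 (0.074) or 3 (0.14).

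EUI (LOC_Os05g40384, chromosome 5) encodes the P450 CYP714D1, which inactivates gibberellins by epoxidation and limits elongation of the uppermost internode. Its FPKM was 0.204, 0.390 and 0.282 in NIP_PEG against 0.296, 0.349 and 0.334 in 708OE_PEG, from 35 to 96 reads per library. The groups overlapped, and on whole reads the log2 fold change was 0.20 (95% interval -0.33 to 0.73, limma-voom adjusted p = 0.58). The value of GA20ox2 on whole reads, 1.07, lies outside that interval. The upper limit rests in part on 1 library, since without NIP_PEG replicate 2 the EUI value was 0.47 (SE 0.25).

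GID1 (LOC_Os05g33730, chromosome 5), the receptor, had an FPKM of 151, 171 and 159 in NIP_PEG against 159, 160 and 143 in 708OE_PEG. The groups overlapped, and the log2 fold change of -0.06 (95% interval -0.24 to 0.12, limma adjusted p = 0.58) did not pass. SLR1 (LOC_Os03g49990, chromosome 3), the DELLA repressor, had an FPKM of 83.7, 89.8 and 88.2 in NIP_PEG against 98.5, 93.3 and 90.2 in 708OE_PEG. The overexpression libraries lay just above the wild-type libraries. The log2 fold change of 0.11 (95% interval -0.04 to 0.25, limma adjusted p = 0.23) did not pass, and with libraries rescaled to the reads in the table it was 0.21 and passed (adjusted p = 0.036). Each library held at least 6053 reads of GID1 and 3242 of SLR1. The ratio of SLR1 to GID1 was 0.556, 0.526 and 0.554 in NIP_PEG against 0.620, 0.585 and 0.633 in 708OE_PEG (exact two-sided permutation p = 0.1).

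**Figure D3:**
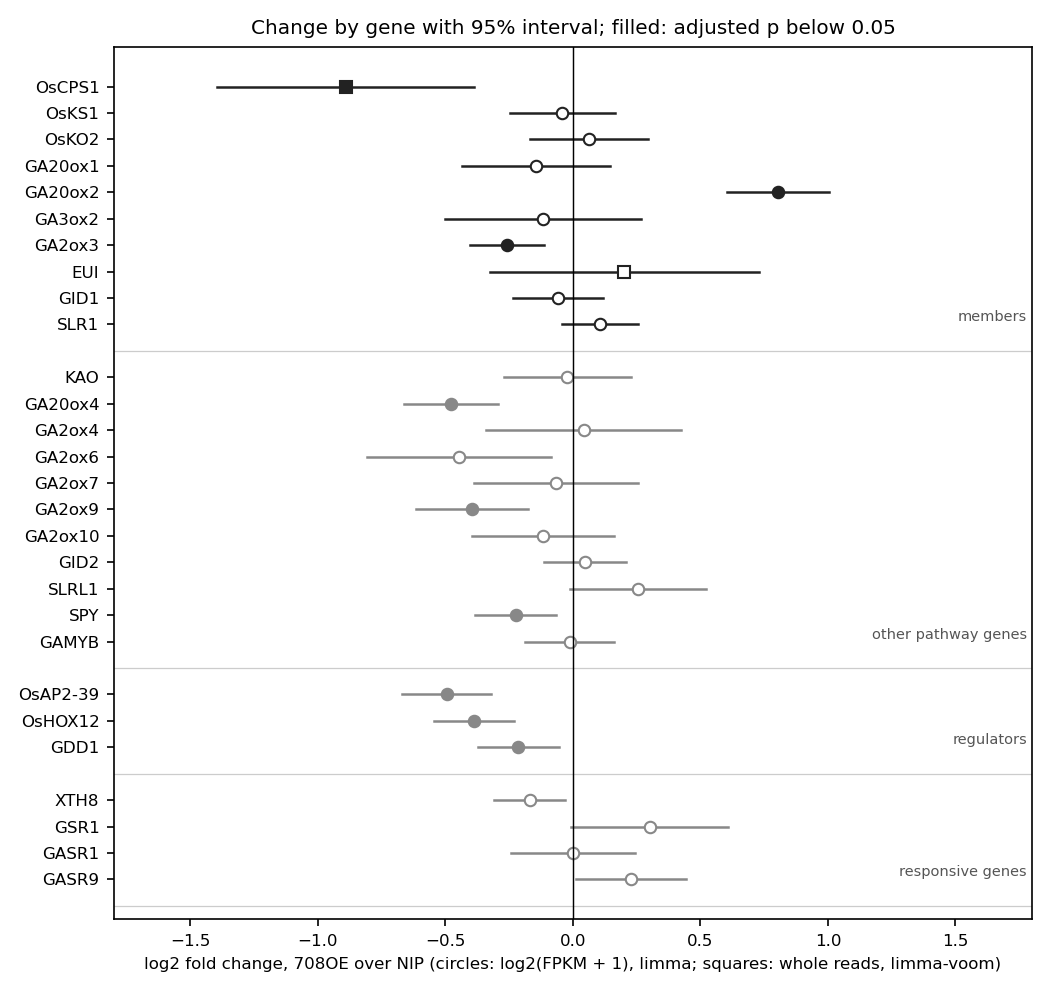
Log2 fold change of 708OE_PEG over NIP_PEG with its 95% interval for the 10 gibberellin genes (black) and the tested genes of 3 further lists (grey); circles are limma on log2(FPKM + 1), squares are limma-voom on whole reads for the 2 genes under the filter, and filled symbols have an adjusted p below 0.05. GA20ox2 is the only filled symbol right of 0.

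Between genes, the levels are per base of gene span. The lengths implied by the FPKM values matched the full span of the gene in the reference table, introns included, for the 7 members that could be compared, with ratios of 0.991 to 1.02. For GA20ox2 both were 3123 bases. A gene with long introns, such as OsCPS1 at 10010 bases, therefore shows a lower FPKM than its transcript length would give, and ranks between genes carry that limit while ratios of 1 gene between genotypes do not. On this scale the wild-type order of means was GID1, SLR1, GA2ox3, OsKS1, GA20ox1, GA20ox2, GA3ox2, OsKO2, OsCPS1 and EUI. The libraries of GA20ox1 and GA20ox2 overlapped, as did those of GA3ox2 with those of GA20ox1, GA20ox2 and OsKO2, and those of OsCPS1 with those of EUI. In the overexpression line GA20ox2 moved up to just below GA2ox3, its libraries overlapping with those of OsKS1, the next gene down.

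Within the wild type, NIP_PEG replicate 1 was the lowest of the 3 libraries for 8 of the 10 genes and the highest for the other 2, GA20ox1 and GA2ox3. Over all genes tested it was the lowest for 39.3% and the highest for 41.5%. Relative to counting noise the wild-type libraries differed more from each other than those of the overexpression line did, with a mean chi-square per gene of 13.9 to 29.0 for pairs of the wild type and 2.24 to 3.72 for pairs of the overexpression line.

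The rest of the pathway was followed in a list of 18 genes, of which 11 passed the filter. None rose, 3 fell (GA20ox4, GA2ox9 and SPY) and 8 did not pass, with a median log2 fold change of -0.07 against -0.04 over all genes tested. The share called was 27.3%, and 20.0% of all genes tested were called lower. The 3 that fell had a mean FPKM above 5. Among genes tested at a mean FPKM of at least 5, 3137 of 10042 were called lower, with a median log2 fold change of -0.098. In synthesis, KAO, which carries the pathway from kaurenoic acid to the first gibberellin, stood at 1.29 ± 0.189 FPKM against 1.26 ± 0.239 (SD of 3 libraries each), which did not pass. GA3ox1 and GA20ox3 were under the filter in both genotypes.

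Of 9 further GA2ox genes listed, 5 passed the filter. GA2ox9 (LOC_Os02g41954) had an FPKM of 7.43, 9.12 and 9.79 in NIP_PEG against 6.32, 6.33 and 6.56 in 708OE_PEG, without overlap (limma log2 fold change -0.39 with SE 0.10 and adjusted p 0.016). The call was lost in 7 of 25 alternatives, among them the removal of NIP_PEG replicate 3 (0.058), 708OE_PEG replicate 1 (0.054) or 2 (0.055). GA2ox6, named after its values were seen, had an FPKM of 1.28, 1.89 and 2.34 against 0.762, 1.33 and 1.12, and missed the threshold (log2 fold change -0.45, limma adjusted p = 0.058). It passed in 6 alternatives, with adjusted p of 0.012 without NIP_PEG replicate 1 (limma), 0.001 without it on whole reads and 0.045 with all libraries on whole reads (limma-voom), 0.020 with the replicate block, 0.037 after quantile normalization (limma) and 0.012 from the authors' deposited table. Neither these 5 tested genes nor GA2ox3 were called higher in the main test, where 14.3% of all genes tested were. With so few genes, this is no sign of a direction for the family.

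In signalling, SPY, a glycosyltransferase that acts in gibberellin signalling together with DELLA proteins, had an FPKM of 11.6, 10.5 and 10.4 in NIP_PEG against 9.55, 9.02 and 8.80 in 708OE_PEG. A log2 fold change of -0.22 with SE 0.07 and a limma adjusted p of 0.038 was lost in 17 of 25 alternatives, among them removal of any 1 library other than NIP_PEG replicate 2 (0.055 to 0.13), and the value was -0.09 once a trend along gene length was taken out. The locus listed as GID2, the F-box protein that targets SLR1, was the most abundant of the 18, at 20.8 ± 1.40 FPKM against 21.5 ± 0.743 (SD of 3 libraries each). It did not pass (limma adjusted p = 0.62). The reference table gives the name GID2 to 2 genes of chromosome 2, and the length of this locus is close to that of the one also named GF14E, so the value may not be that of the F-box gene. GAMYB and the DELLA relative SLRL1 did not pass.

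Among 5 listed regulators of these genes, 3 passed the filter and all 3 fell, where 20.0% of all genes tested were called lower. All 3 had a mean FPKM above 5. Among genes tested at a mean FPKM of at least 5, 3137 of 10042 were called lower. OsAP2-39, a factor reported to raise EUI in rice, had an FPKM of 67.3, 67.8 and 70.5 in NIP_PEG against 51.7, 49.96 and 43.7 in 708OE_PEG (limma log2 fold change -0.50 with SE 0.08 and adjusted p 0.0024). OsHOX12, a homeodomain factor reported to bind and raise EUI, had 27.6, 29.3 and 29.7 against 23.2, 21.5 and 20.8 (limma log2 fold change -0.39 with SE 0.07 and adjusted p 0.0041). Both calls held in all 25 alternatives, while EUI itself, at an FPKM below 0.4 in every library, did not pass. GDD1, a kinesin-like protein reported to raise transcription of an early synthesis gene, had a log2 fold change of -0.21, with an adjusted p of 0.044 by limma, which was lost in 18 of 25 alternatives, among them removal of any 1 library other than NIP_PEG replicate 1 (0.072 to 0.15).

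Of 5 listed genes that respond to gibberellin, 4 passed the filter and none passed the test (limma, adjusted p from 0.061 upward). Over all genes tested 34.3% were called, so none among 4 is no sign of an unchanged response. The wall enzyme gene XTH8 was the most abundant, at 192, 182 and 183 in NIP_PEG against 166, 167 and 162 in 708OE_PEG. These libraries did not overlap, as for 50.6% of all genes tested, and the log2 fold change of -0.17 had a limma adjusted p of 0.061. It passed in 4 alternatives, among them limma without NIP_PEG replicate 1 (adjusted p = 0.0498). Named after their values were seen, GSR1 and GASR9, genes of the gibberellin-stimulated family of small proteins, had log2 fold changes of the other sign, 0.30 and 0.23 (limma adjusted p = 0.12 and 0.093). GASR9 passed as higher in 6 alternatives and GSR1 in 2, and the median over the 4 tested genes was 0.11. The amylase gene RAmy1A was at 0 in every library.

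**Figure D4:**
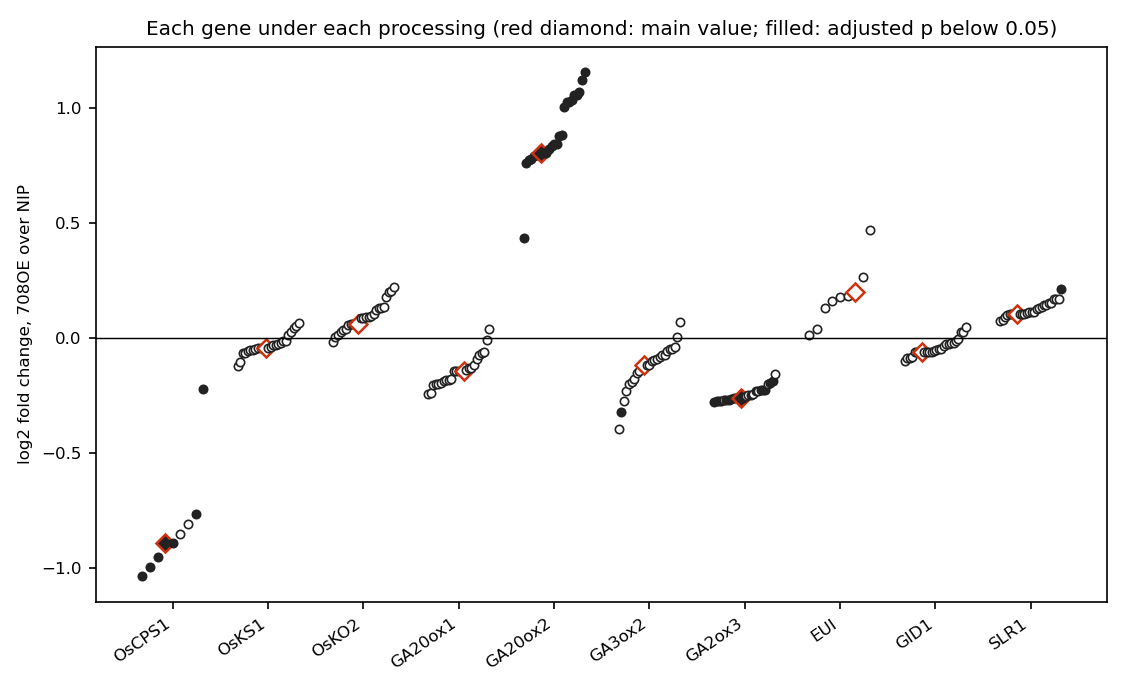
Log2 fold change of each gibberellin gene under each alternative way of processing the same libraries, sorted by value within a gene; the red diamond is the value of the main test, or of limma-voom on whole reads for OsCPS1 and EUI, and filled symbols have an adjusted p below 0.05. GA20ox2 is filled throughout, GA2ox3 and OsCPS1 in part, SLR1 and GA3ox2 once each.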

How the data were processed

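The authors deposited 1 table of FPKM values for 6 libraries with their own log2 fold changes and p-values, per the file headers. HISAT2, featureCounts and DESeq2 are among the tools listed in the submitters' processing notes, along with FastQC, cutadapt, SAMtools and deepTools. The sources used here do not give versions, build, annotation or strand setting. RNA was poly(A)-selected for stranded libraries, per the labels' protocols. The names of the wild-type columns hold a digit that the labels do not explain, so these columns were assigned to the group and not to single samples.

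The members and lists were chosen with earlier results of these data known. Names are matched to a reference table (RefSeq, assembly ASM3414082v1) for 7 of 10 members and 6 of 18 further pathway genes. GA20ox1, GA3ox2, GA2ox3, GA20ox4 and the further GA2ox genes could not be compared, and their names rest on the lists alone. The same holds for GA3ox1, SLRL2, OsAP2-39, RAmy1A, GSR1, GASR1, GASR9 and OsKSL8. It also holds for the root marker RCc3 and the green-tissue markers Lhcb, PsaD, PsaE and PsbS1. GA20ox3, OsKO1, OSH1, OSH15, Lsi2, NRT2.1, AMT1;2 and NAR2.1 were matched by name and chromosome only, with no implied length to compare. OsKO1 and OsKOL4 were matched to the same reference gene, as were OsKS2 and OsKS3, and both RbcS loci. Among genes matched by name, implied length differed most from the reference span for OsKS3 (1.63 times), YAB1 (0.823), Rca (0.639) and RbcS LOC_Os12g19470 (1.93). The builds may differ, so no coordinates are printed, and no sequences were used.

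Groups were compared with limma 3.58.1 under R 4.3.3, on log2(FPKM + 1) of genes with 3 or more libraries at 1 FPKM or above, with variances moderated along a trend on expression, two-sided, Benjamini-Hochberg adjusted at 0.05 over 18569 genes. Since FPKM moves in steps of 1 read, whole reads (tolerance 0.02) were recovered for 26864 of 31263 genes with any read and tested with limma-voom, which kept genes that reached 0.1 FPKM in 3 or more libraries, a limit chosen after the data were seen. Reads in the table, summed over these 26864 genes, were 1.05 to 1.07 times the implied library size for NIP_PEG and 0.972 to 0.997 times for 708OE_PEG. For a gene of 1 kb, 1 read equalled 0.0402 to 0.0752 FPKM. Both steps were tested on simulated data. For limma, a first simulation with a common dispersion gave more false calls than the nominal level. A second, with dispersions that vary between genes and chosen after seeing the first, did not. Both gave the groups equal dispersions, while the wild-type libraries here differed more among themselves. Neither therefore measured false calls under such unequal spread. All members are named, with the genes past the threshold and the most abundant gene of each other list. Single values were compared by exact permutation tests.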

Additional observations from a re-analysis of the deposited data

How the results depend on the processing

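The number of gibberellin genes called was 2 of 8 and became 1 among the 3 tested when genes needed a mean FPKM of 5. At that limit 4729 of all 10042 genes tested were called. Leaving out 1 library gave 1 to 3 of 8, and on whole reads (limma-voom, added after seeing the data) 1 to 3 of 10. With the closest pair of 708OE_PEG libraries (replicates 1 and 2) averaged into 1 sample, other pathway calls went from 3 of 11 to 1. After rescaling to the table's own reads they also went to 1. With the authors' p-values (whose own adjustment is not stated) there were 5 of 18. That is 27.8%, against 27.3% in the main test and 28.9% of all genes by the authors' p-values. Without 1 library the count ranged from 1 to 4 of 11, and on whole reads without 1 library from 1 to 4 of 12. Over the whole table, calls among 18569 genes went from 6360 to 4227 with that pair averaged, and to between 3708 and 7176 without 1 library. On whole reads without 1 library they were between 3858 and 8119 among 24723 genes.

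Directions changed only for genes that did not pass in the main test. GA3ox2, which was called lower in 1 alternative (limma without NIP_PEG replicate 1), was among these. The log2 fold change of OsKS1 was 0.0517 with the length trend removed, 0.045 rescaled to the table's own reads, and -0.1217 to 0.0262 without 1 library. On whole reads it was 0.0638 without NIP_PEG replicate 2 and 0.0121 without 708OE_PEG replicate 3. That of GID1 was 0.0479 rescaled, and on whole reads 0.0262 without NIP_PEG replicate 2 and 0.0266 without 708OE_PEG replicate 3. Without 1 library OsKO2 ranged from -0.0165 to 0.1226 and GA3ox2 from -0.3225 to 0.0059. On whole reads GA20ox1 was 0.0376 without NIP_PEG replicate 1 and GA3ox2 0.0671 without NIP_PEG replicate 2. The causes were not tested. OsCPS1 and EUI were tested on whole reads, with no value in the main test. OsCPS1 passed in 6 of its 8 alternatives, the authors' p-values among them, and EUI in none (adjusted p from 0.16 to 0.97).

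With the replicate number as a block, 5619 genes, 2 gibberellin genes and 3 other pathway genes were called. Same-numbered libraries did not deviate together (r = -0.01, 0.00 and -0.04), and pairs of unlike number had r from -0.02 to 0.04. This gave no sign of pairing by number. It cannot exclude pairing, since deviations were taken from means of only 3 libraries. The members with the fewest reads per library were OsCPS1 (26 to 104), GA3ox2 (28 to 84), EUI (35 to 96) and GA20ox1 (62 to 133), so their counting error is the widest. The part of depth in their results was not tested.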
